A study of Mus musculus with 18 samples.

Results

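Unsorted LCP cultures of mouse cochlea at day 10 of differentiation (LCP D10, 2 libraries) were compared with unsorted LCP cultures at day 0 (LCP D0, 2 libraries), which make up 4 of the 18 RNA sequencing libraries of the series. The genes described are the protein-coding genes with at least 1 TPM (a transcript level corrected for length and scaled to a fixed total per library) in at least 2 of these 4 libraries. There were 12596 such genes, of 21697 protein-coding genes in the files and 20463 genes of all types tested in the series. Sorted LCP cultures at D10 (2 libraries) and D0 (2 libraries) served for a second comparison. The other groups, which only shared the estimate of the spread, were unsorted cultures at D2 and D4 and cells sorted as Atoh1, Lgr5 or Sox2 from cochleae at postnatal day 2. The labels give the tissue of all LCP groups as primary cochlear organoids and mark the sorted groups as such. LCP is taken to stand for Lgr5-positive cochlear progenitors, which the labels do not spell out. Among the sources used here none states, for the cultures, genotype, strain, donor age, differentiation medium or the marker of the sort. The labels of every sample carry a treatment text on tamoxifen in pups with Sox2-CreER and a beta-catenin allele with a floxed exon 3, which no title or characteristic assigns to a group. The protocol text gives both ears of a single pup per sample in a passage on dissected epithelium, and whether this holds for the cultures is not stated.

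The sensory epithelium of the cochlea holds hair cells, which turn sound into electrical signals with a bundle of actin-filled stereocilia, and supporting cells, which surround them. Notch signaling between neighbours keeps supporting cells from becoming hair cells, and Lgr5-positive supporting cells of the newborn mouse can divide and give rise to hair cells when expanded in culture. Hair cells are postmitotic, and the unsorted culture is a mixture, so its transcript levels are the net of every cell type present.

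Values were deposited as TPM, so depth is unknown and no counting intervals can be given. Genes with at least 1 TPM numbered 14764 and 15048 in the D10 libraries, against 15160 and 14699 in the D0 libraries. Mitochondrial transcripts took 7.04 and 7.88% of the TPM at D10, against 4.27 and 6.01% at D0. Across the 12596 genes the Pearson correlation of log2(TPM + 1) was 0.896 between the D10 libraries and 0.950 between the D0 libraries, against 0.788 to 0.846 between a D10 and a D0 library. LCP D10 and D0 libraries of the same replicate number carry the same RNA extraction date in the labels. In replicate 2 the sequencing date was shared as well, and in replicate 1 it was not. The labels date the sequencing of replicate 1 before its extraction, so these dates may be wrong. All differences below are D10 minus D0 on the log2(TPM + 1) scale, which understates the change of low genes, with the standard error (SE) of a limma fit of all 18 libraries and a p adjusted over the 20463 genes tested. Nothing states that the replicates came from separate cultures, so these p-values measure only the spread between these libraries. A design of 2 against 2 libraries cannot reach an exact two-sided permutation p below 0.333.

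At an adjusted p under 0.05, 506 of the 12596 genes (4.02%) rose and 804 (6.38%) fell, together 10.4%, against 3.05% up, 4.34% down and together 7.39% among all 20463 genes tested. Both D10 libraries lay beyond both D0 libraries for 6720 genes (53.4%), with 2261 (18%) above and 4459 (35.4%) below, against 45.8% of all genes tested. All 1310 genes past the threshold were among them, so groups that do not overlap are no added evidence for such a gene. The gap between the groups was at least 1 log2 unit for 575 genes above and 847 below, and at least 3 for 91 above and 83 below. The median difference was 2.37 in size among genes that rose and 1.93 among genes that fell, and -0.22 over all 12596. With groups that do not overlap, each of the 506 genes that rose was necessarily higher in both replicate numbers. Each of the 804 that fell was lower in both for the same reason. Across all 12596 genes the differences of replicate 1 and of replicate 2 had a Pearson correlation of 0.640, a description across genes, which are not independent. The choice of genes bears on the largest changes: 373 genes reached 1 TPM in the D10 libraries only, of which 211 rose, and 499 in the D0 libraries only, of which 267 fell. At the edge of the minimum, Cd46 was just inside with a second highest value of 1.0011 TPM, and Ankdd1b was just outside with 0.99955 TPM.

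**Figure D1:**
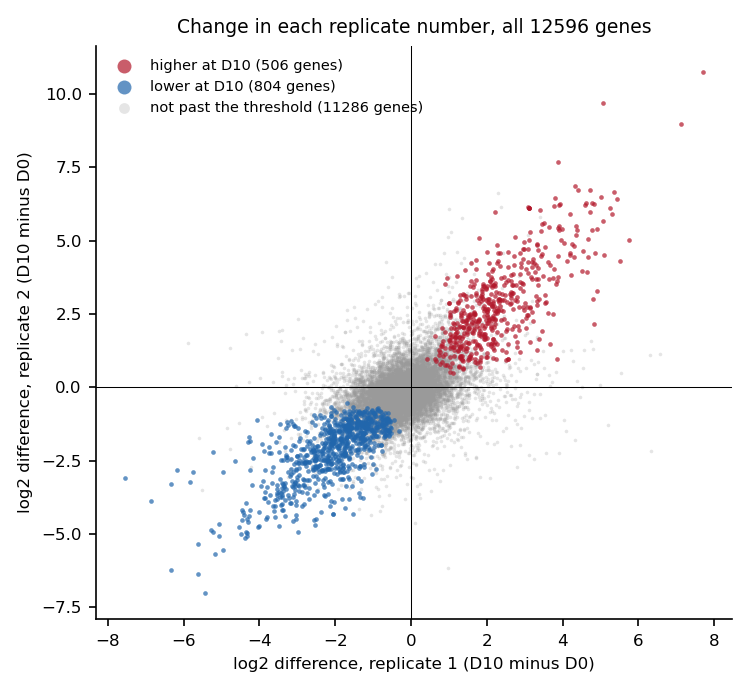
Log2 difference (D10 minus D0, log2(TPM + 1) scale) in replicate 1 (x axis) and replicate 2 (y axis) for the 12596 genes, 1 point each. The 506 genes that rose (red) lie at the upper right and the 804 that fell (blue) at the lower left. This follows from groups that do not overlap. Genes that did not pass the threshold (grey) lie on all sides of the origin.

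The widest gaps upward were held by genes of hair cells and of cilia. Cabp2 (ENSMUSG00000024857, chr19:4081578-4087340 on GRCm38), a calcium sensor that modulates the calcium channel of inner hair cells, had 208 and 1808 TPM at D10, against 0 and 0.0421 TPM at D0, with a log2 difference of 9.24 ± 1.02 (SE) and an adjusted p of 0.000354. Kcna10 (ENSMUSG00000042861, chr3:107183060-107195720), a voltage-gated potassium channel of hair cells, had 177 and 573 TPM at D10, against 0.269 and 0.133 TPM at D0, with a log2 difference of 8.06 ± 0.77 (SE) and an adjusted p of 0.000165. Both genes were close to 0 in each D0 library, and in both the second D10 library was the higher one. Gfi1 (ENSMUSG00000029275, chr5:107716660-107726040), a zinc finger repressor that hair cells need to survive, had 80.9 and 145 TPM at D10, against 0.887 and 0.698 TPM at D0, with a log2 difference of 5.93 ± 0.59 (SE) and an adjusted p of 0.000191. Cib3, a calcium-binding partner of the mechanotransduction channel, had 32.8 and 820.0 TPM at D10, against 0 and 0 TPM at D0. It was listed at 0 in both D0 libraries, and its D10 libraries differed more from each other than those of any other gene of the 15 widest upward gaps. Lhfpl5, a subunit of the mechanotransduction complex, had 136 and 162 TPM at D10, against 1.53 and 4.05 TPM at D0. Fscn2, an actin crosslinker of stereocilia, had 37.2 and 83.2 TPM at D10, against 0.565 and 0.0772 TPM at D0. Chrna10, a subunit of the nicotinic receptor that receives efferent input to hair cells, had 27.4 and 70.1 TPM at D10, against 0.0802 and 0.139 TPM at D0. The groups did not overlap in these 7 genes, which follows from the choice by gap.

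Among the same 15 genes were 3 linked to cilia and flagella. Drc1, a subunit of the dynein regulatory complex of motile cilia, had 79.8 and 143 TPM at D10, against 0.987 and 0.438 TPM at D0, with a log2 difference of 5.99 ± 0.85 (SE) and an adjusted p of 0.00167. Cfap161, a cilia and flagella associated protein, had 59.3 and 168 TPM at D10, against 0.859 and 0.885 TPM at D0. Meig1, which mouse sperm need to build a flagellum, had 34 and 69.4 TPM at D10, against 0.0362 and 0.385 TPM at D0. Elmod1, a GTPase-activating protein needed for normal stereocilia in the mouse, had 35 and 89.5 TPM at D10, against 0.262 and 0.2 TPM at D0. Ppp1r27, Mindy4b-ps and Smim5 were among them too, with differences of 5.53 ± 0.72, 5.61 ± 0.56 and 5.14 ± 0.54 (SE). All 14 of the genes named here kept an adjusted p under 0.05 when any 1 of the 4 libraries was left out. The library kits do not mark strand, and Gfi1, Mindy4b-ps and Chrna10 share exon sequence with a gene on the opposite strand (Art1 in the case of Chrna10), so reads of the 2 genes cannot be told apart there.

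The widest gaps downward were held mostly by genes of mitosis. Cdk1 (ENSMUSG00000019942, chr10:69335146-69352938), the kinase that drives entry into mitosis, had 2.04 and 1.31 TPM at D10, against 148 and 187 TPM at D0, with a log2 difference of -5.98 ± 0.54 (SE) and an adjusted p of 0.000155. Ccnb1 (ENSMUSG00000041431, chr13:100778650-100786570), its cyclin B1 partner, had 0.169 and 0.554 TPM at D10, against 57 and 61.5 TPM at D0, with a log2 difference of -5.48 ± 0.40 (SE) and an adjusted p of 6.21e-05. All 4 of these D10 values were below 3 TPM. Hist1h2ap, a replication-dependent histone H2A gene, had 10.6 and 4.66 TPM at D10, against 923 and 425 TPM at D0. It belongs to a family of near-identical copies whose reads the counting could split, so its value is uncertain. Fbln1, fibulin-1 of the extracellular matrix, had 0.909 and 1.34 TPM at D10, against 73.4 and 66.6 TPM at D0, with a log2 difference of -5.07 ± 0.49 (SE) and an adjusted p of 0.000175. Exo1, an exonuclease of DNA repair, had 0.113 and 0.0309 TPM at D10, against 23.4 and 22.8 TPM at D0. The remaining 10 were the mitotic genes Pbk, Ube2c, Ccnb2, Aurkb, Pimreg, Cdca3, Birc5, Sapcd2, Ccna2 and Plk1, whose differences ran from -5.43 ± 0.40 (SE) in Pbk to -4.44 ± 0.39 (SE) in Plk1. All 15 kept the call when any 1 of the 4 libraries was left out. Ube2c, Ccna2, Plk1 and Hist1h2ap also share exon sequence with an opposite-strand gene.

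**Figure D2:**
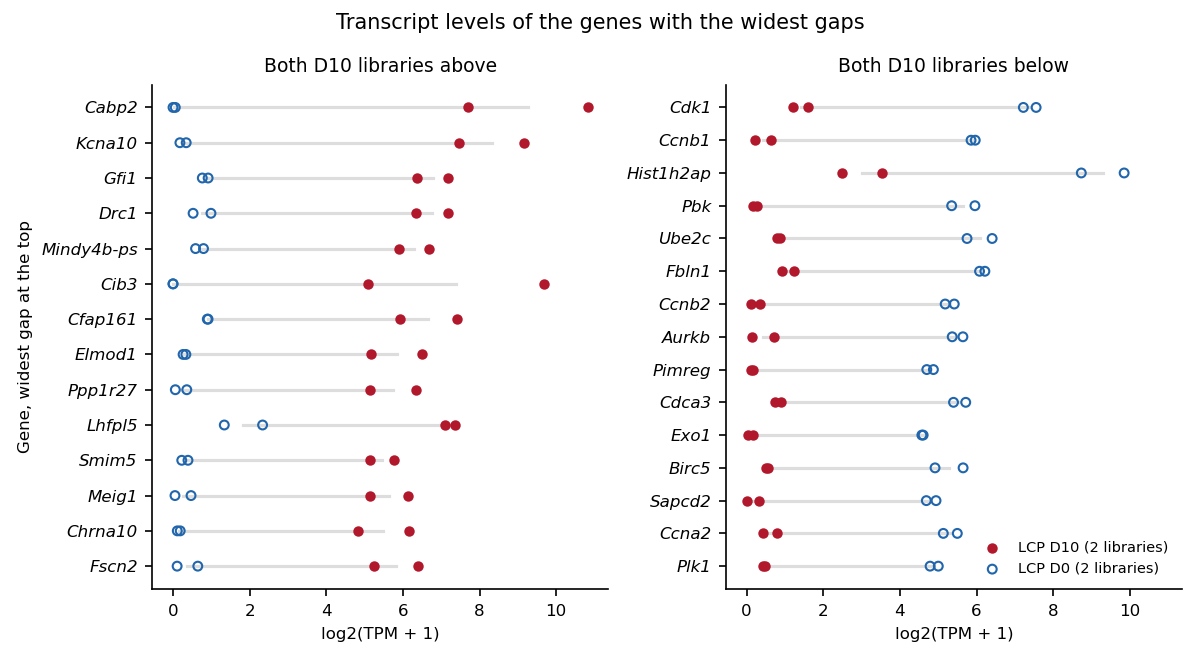
Levels as log2(TPM + 1) (x axis) of 14 of the 15 genes with the widest gap with both D10 libraries above (left) and the 15 with both below (right), among genes past the threshold with a group mean of at least 10 TPM. Filled red points are the 2 LCP D10 libraries, open blue points the 2 LCP D0 libraries, and grey lines join the group means. By the choice of genes, no red and blue points overlap in any row.

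The promoters of a few of these genes are shown to set letters beside the values, 250 bases before to 50 after the gene start, from RefSeq on GRCm38.p6. The first pair marks in capitals the letters TTTGAA, the cell cycle homology region motif of genes of G2 phase and mitosis. The third marks TTTGGCGC, a form of the E2F motif, and the last marks matches to CAGNTG, an E box of the kind bound by basic helix-loop-helix factors such as Atoh1. Both strands were searched. Cdk1 lies at chr10:69352863-69353162 on the minus strand, Plk1 at chr7:122159185-122159484 on the plus strand, Mcm6 at chr1:128359656-128359955 on the minus strand and Kcna10 at chr3:107182893-107183192 on the plus strand.
Cdk1: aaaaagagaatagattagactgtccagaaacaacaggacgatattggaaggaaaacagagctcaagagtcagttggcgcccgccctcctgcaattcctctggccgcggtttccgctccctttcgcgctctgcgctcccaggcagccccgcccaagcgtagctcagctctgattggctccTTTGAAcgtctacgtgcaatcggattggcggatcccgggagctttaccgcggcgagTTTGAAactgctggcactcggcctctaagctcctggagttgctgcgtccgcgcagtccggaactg
Plk1: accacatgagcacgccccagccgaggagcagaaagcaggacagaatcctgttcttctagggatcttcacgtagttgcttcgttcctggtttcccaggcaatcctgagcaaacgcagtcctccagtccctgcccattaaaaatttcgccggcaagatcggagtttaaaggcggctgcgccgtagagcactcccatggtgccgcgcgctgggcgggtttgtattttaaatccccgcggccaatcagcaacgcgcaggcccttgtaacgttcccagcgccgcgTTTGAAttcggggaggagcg
Mcm6: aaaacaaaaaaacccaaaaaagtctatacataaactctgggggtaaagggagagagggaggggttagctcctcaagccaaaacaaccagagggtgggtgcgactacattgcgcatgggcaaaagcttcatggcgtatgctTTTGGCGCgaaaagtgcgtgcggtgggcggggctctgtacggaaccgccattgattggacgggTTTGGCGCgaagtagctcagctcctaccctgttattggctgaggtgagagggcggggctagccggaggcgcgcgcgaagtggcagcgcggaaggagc
Kcna10: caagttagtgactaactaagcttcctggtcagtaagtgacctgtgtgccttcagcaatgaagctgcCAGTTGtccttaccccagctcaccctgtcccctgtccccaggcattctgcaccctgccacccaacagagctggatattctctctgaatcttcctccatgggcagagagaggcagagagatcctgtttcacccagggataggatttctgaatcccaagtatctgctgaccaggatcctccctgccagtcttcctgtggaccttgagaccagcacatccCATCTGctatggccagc
TTTGAA began at -71 and -15 from the gene start in Cdk1 and at 31 in Plk1, and 20.2% of the 27025 genes with a promoter in the table held it. Cdk1 held 3 matches to CCAAT and Plk1 held 1, and 41.1% of all promoter genes held at least 1. The Ccnb1 promoter held no TTTGAA and 2 matches to CCAAT. An E2F motif (TTTCCCGC or TTTGGCGC) was in 9 of the 26 promoters found for the 32 genes of DNA replication and S phase described below (34.6%), against 1.80% of all promoter genes. The 2 matches of Mcm6 began at -110 and -47. CAGNTG was in 18 of the 29 promoters found for the 35 hair bundle genes (62.1%), against 54.6% of all promoter genes. Promoters were found for 22 of the 28 mitosis genes, too few for a share over that list. The shares over all promoter genes include genes that did not reach the minimum of 1 TPM here, unlike the lists. A match describes letters and not binding.

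Genes of mitosis and G2 phase fell together. All 28 of the 28 genes in this list passed the threshold downward, against 6.38% of the 12596 genes, with a median difference of -3.91. Their summed level was 37.2 and 27.3 TPM at D10, against 1041 and 1148 TPM at D0. Mki67, the proliferation marker Ki-67, had 0.0586 and 0.0318 TPM at D10, against 5.15 and 4.75 TPM at D0, with a log2 difference of -2.51 ± 0.34 (SE) and an adjusted p of 0.00142. Top2a, the topoisomerase that untangles sister chromosomes, had 0.715 and 0.368 TPM at D10, against 23.2 and 29.6 TPM at D0. Foxm1, a transcription factor of mitotic genes, had 0.305 and 0.414 TPM at D10, against 9.66 and 8.89 TPM at D0. Bub1b, a kinase of the spindle checkpoint, had 0.294 and 0.353 TPM at D10, against 23.6 and 23.5 TPM at D0. Each of these 4 genes was below 1 TPM in both D10 libraries. Of the 28 genes, 25 kept the call when any 1 of the 4 libraries was left out. Of the others, Cdc20 missed it without D0 replicate 1 or D0 replicate 2 (adjusted p = 0.0673 and 0.0534), Cenpe without D0 replicate 1 (adjusted p = 0.0676) and Prc1 without D10 replicate 2, D0 replicate 1 or D0 replicate 2 (adjusted p = 0.153, 0.141 and 0.0752).

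DNA replication and S phase genes also fell, by less. Of 32 genes measured, 28 passed downward and none upward, against 6.38% downward among the 12596 genes. The median was -2.28, and the summed level was 197 and 148 TPM at D10, against 879 and 1084 TPM at D0. Mcm6, a subunit of the replicative helicase, had 2.88 and 7.34 TPM at D10, against 56.5 and 75.5 TPM at D0, with a log2 difference of -3.54 ± 0.43 (SE) and an adjusted p of 0.000681. All 6 subunits of that helicase (Mcm2 to Mcm7) were among the 28, with Mcm5 at -3.68 ± 0.37 and Mcm2 at -3.61 ± 0.54 (SE). Rrm2, a subunit of the enzyme that makes deoxynucleotides, had 0.589 and 1.2 TPM at D10, against 33 and 40.5 TPM at D0, with a log2 difference of -4.33 ± 0.40 (SE) and an adjusted p of 0.000165. Uhrf1, which brings DNA methylation to newly copied strands, had 2.07 and 1.17 TPM at D10, against 48.7 and 56.6 TPM at D0, with a log2 difference of -4.37 ± 0.39 (SE) and an adjusted p of 0.000155. E2f1, a transcription factor of S phase genes, had 0.532 and 0.436 TPM at D10, against 7.37 and 9 TPM at D0. Pcna, the sliding clamp of DNA polymerase, kept the highest level of these named genes at D10, with 39 and 26.2 TPM at D10, against 63.4 and 72.8 TPM at D0. Both D10 libraries lay below both D0 libraries for 31 of the 32 genes, against 35.4% of the 12596. Leaving out 1 library, 16 of the 28 kept the call each time, and the count was 18 without D10 replicate 2 or D0 replicate 2. Mcm7 missed it without D10 replicate 2 or D0 replicate 1 (adjusted p = 0.0574 and 0.0629), and Pcna without D10 replicate 2, D0 replicate 1 or D0 replicate 2 (adjusted p = 0.26, 0.138 and 0.21).

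Regulators of the G1 phase moved both ways. Of 15 genes measured, 3 rose and 4 fell, against 4.02% up and 6.38% down among the 12596 genes. Cdkn1c, the CDK inhibitor p57, had 289 and 722 TPM at D10, against 38.3 and 48.8 TPM at D0, with a log2 difference of 3.37 ± 0.49 (SE) and an adjusted p of 0.00202. Cdkn2d, the inhibitor p19, had 106 and 257 TPM at D10, against 26.2 and 32 TPM at D0, and Gadd45g, a growth arrest gene, had 173 and 78.5 TPM at D10, against 36.7 and 15.1 TPM at D0. In these 3 genes both D10 libraries were above both D0 libraries. Ccnd1, cyclin D1, had 39 and 12.7 TPM at D10, against 114 and 273 TPM at D0, with a log2 difference of -2.92 ± 0.62 (SE) and an adjusted p of 0.0146. Cdkn2c, another inhibitor of the same family as Cdkn2d, fell with 0.434 and 0.627 TPM at D10, against 4.53 and 11.6 TPM at D0, and Rbl1, the retinoblastoma-like p107, had 0.94 and 0.944 TPM at D10, against 8.9 and 7.83 TPM at D0. Ccnd3, cyclin D3, fell least, at -0.83 ± 0.19 (SE). Cdkn1c, Cdkn2c and Rbl1 kept the call each time a library was left out. Cdkn2d missed it without D10 replicate 2, D0 replicate 1 or D0 replicate 2 (adjusted p = 0.195, 0.158 and 0.106), Gadd45g without D10 replicate 1 or D0 replicate 2 (adjusted p = 0.121 and 0.172), Ccnd1 without D10 replicate 2 or D0 replicate 2 (adjusted p = 0.114 and 0.128) and Ccnd3 when any 1 of the 4 libraries was left out (adjusted p of 0.0581 to 0.129). Cdkn1c and Ccnd1 share exon sequence with an opposite-strand gene.

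Hair bundle and mechanotransduction genes rose: 24 of 35 measured genes passed upward and none downward, against 4.02% upward among the 12596, with a median difference of 2.68. Their summed level was 1620 and 3713 TPM at D10, against 625 and 589 TPM at D0. Tmc1, a pore subunit of the mechanotransduction channel, had 9.04 and 39.9 TPM at D10, against 0.148 and 0.0348 TPM at D0, with a log2 difference of 4.22 ± 0.72 (SE) and an adjusted p of 0.00472. Myo7a, a motor of the tip link complex, had 16.2 and 37.4 TPM at D10, against 0.729 and 0.346 TPM at D0, with a log2 difference of 4.08 ± 0.60 (SE) and an adjusted p of 0.00225. Kncn, kinocilin, had 27 and 130.1 TPM at D10, against 0.0513 and 0.236 TPM at D0. Ptprq, a phosphatase of the stereocilia shaft, had 12.8 and 19.8 TPM at D10, against 0.118 and 0.0741 TPM at D0. Loxhd1, a deafness gene product needed for mechanotransduction, had 12.8 and 18.5 TPM at D10, against 0.0865 and 0.0815 TPM at D0. The D10 libraries of these 5 genes were all above 9 TPM and the D0 libraries all below 1 TPM. Espn, the actin bundler espin, started from a higher level, with 169.9 and 507 TPM at D10, against 34.3 and 25.8 TPM at D0. Cdh23, the upper part of the tip link, rose at 2.10 ± 0.44 (SE), with 6.25 and 5.87 TPM at D10, against 0.814 and 0.502 TPM at D0. Without D10 replicate 2 the list median was 2.14, and the list then held a downward call too. Most of the 24 genes missed the upward call in at least 1 fit that left out a library. Espn missed it without D10 replicate 2 or D0 replicate 2 (adjusted p = 0.0634 and 0.0619) and Cdh23 when any 1 of the 4 libraries was left out (adjusted p of 0.0512 to 0.0912).

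Genes of the hair cell synapse, channels and calcium handling followed the same direction. Of 17 measured, 12 rose and 1 fell, against 4.02% up and 6.38% down among the 12596 genes, with a median of 2.53. Otof, the calcium sensor of vesicle release at the ribbon synapse, had 22.4 and 129.5 TPM at D10, against 0.153 and 0.111 TPM at D0, with a log2 difference of 5.61 ± 0.77 (SE) and an adjusted p of 0.00143. Chrna9, the receptor partner of Chrna10, had 20.6 and 74.8 TPM at D10, against 0.477 and 0.762 TPM at D0, with a log2 difference of 4.65 ± 0.73 (SE) and an adjusted p of 0.00303. Slc17a8, the vesicular glutamate transporter of inner hair cells, had 2.79 and 8.2 TPM at D10, against 0.0239 and 0.0173 TPM at D0. Calb2, the calcium buffer calretinin, had 232 and 309.8 TPM at D10, against 11.3 and 9.6 TPM at D0. In these 4 genes too no D10 value fell within the D0 values. Cabp1, a calcium sensor related to Cabp2, fell, with 0.51 and 0.88 TPM at D10, against 2.98 and 3.22 TPM at D0. Slc26a5, the outer hair cell motor prestin, did not reach the minimum, with a highest value of 0.0788 TPM in the 4 libraries. Slc17a8 missed the call without D10 replicate 2, D0 replicate 1 or D0 replicate 2 (adjusted p = 0.072, 0.0664 and 0.06), Calb2 without D10 replicate 2, D0 replicate 1 or D0 replicate 2 (adjusted p = 0.0565, 0.0587 and 0.062) and Cabp1 without D10 replicate 1, D0 replicate 1 or D0 replicate 2 (adjusted p = 0.0821, 0.0856 and 0.0948). Of the 13 calls, 5 held each time a library was left out, and 5 genes passed upward without D10 replicate 2 or D0 replicate 1 and 6 without D0 replicate 2.

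Of 11 hair cell transcription factors listed, 9 were measured. Of these, 4 rose and 1 fell, against 4.02% up and 6.38% down among the 12596 genes. Lhx3, a LIM homeobox factor of hair cells, had 74.2 and 69.4 TPM at D10, against 1.59 and 1.93 TPM at D0, with a log2 difference of 4.72 ± 0.73 (SE) and an adjusted p of 0.00285. Pou4f3, a POU factor that hair cells need to differentiate, had 19.4 and 37.9 TPM at D10, against 0.988 and 2.02 TPM at D0, with a log2 difference of 3.52 ± 0.69 (SE) and an adjusted p of 0.0101. Barhl1, a homeobox factor of hair cell maintenance, had 11.2 and 6.75 TPM at D10, against 0.315 and 0.631 TPM at D0. Atoh1, the factor that starts hair cell fate, did not pass the threshold, with 24.3 and 14.2 TPM at D10, against 2.76 and 5.79 TPM at D0 and a log2 difference of 1.96 ± 0.69 (SE) and an adjusted p of 0.123. Its D10 libraries were both above its D0 libraries. Lhx3 and Gfi1 kept the call each time a library was left out. Pou4f3 missed it without D10 replicate 2 or D0 replicate 1 (adjusted p = 0.0771 and 0.0867) and Barhl1 without D10 replicate 1 or D0 replicate 1 (adjusted p = 0.0546 and 0.0794). Lhx3 shares exon sequence with an opposite-strand gene.

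Several Notch effectors fell and the ligand genes Dll1 and Dll4 rose. Of 22 pathway genes, 7 fell and 2 rose, against 6.38% down and 4.02% up among the 12596 genes. The list median was -1.08 in replicate 1 and -0.06 in replicate 2, against -0.21 in each over the 12596. The summed level was 217 and 252 TPM at D10, against 3822 and 1133 TPM at D0. Hes1, a repressor that Notch activates, had 44.9 and 4.35 TPM at D10, against 1982 and 689 TPM at D0, with a log2 difference of -6.22 ± 1.24 (SE) and an adjusted p of 0.011. Nrarp, a feedback inhibitor induced by Notch, had 0.568 and 1.31 TPM at D10, against 126 and 21.6 TPM at D0, with a log2 difference of -4.82 ± 0.76 (SE) and an adjusted p of 0.00309. Hey1, another Notch-activated repressor, had 8.94 and 12.7 TPM at D10, against 721 and 95.5 TPM at D0. The D0 libraries differed widely in all 3, with replicate 1 the higher, and every D0 value was above every D10 value. Hes5, Heyl, Hey2 and the ligand gene Jag1 were the others that fell, at -5.38 ± 1.33, -5.31 ± 1.09, -2.42 ± 0.46 and -4.86 ± 1.23 (SE). Dll1, a ligand that hair cells present to their neighbours, had 16 and 23.7 TPM at D10, against 0.63 and 2.08 TPM at D0, with a log2 difference of 3.19 ± 0.61 (SE) and an adjusted p of 0.00909. Dll4, a second ligand, had 3.06 and 2.42 TPM at D10, against 0.077 and 0.101 TPM at D0. Nrarp kept the call whichever library was left out. Each of the other 8 missed it in at least 1 such fit. Hes1 missed it without D10 replicate 2 or D0 replicate 1 (adjusted p = 0.0898 and 0.0989), Hes5 without D10 replicate 1, D10 replicate 2 or D0 replicate 1 (adjusted p = 0.0972, 0.109 and 0.235) and Heyl without D10 replicate 1 or D0 replicate 1 (adjusted p = 0.071 and 0.122). Hey1 missed it without D10 replicate 1, D10 replicate 2 or D0 replicate 1 (adjusted p = 0.0553, 0.05005 and 0.113), Hey2 without D10 replicate 2 or D0 replicate 1 (adjusted p = 0.0657 and 0.0832) and Jag1 when any 1 of the 4 libraries was left out (adjusted p of 0.0556 to 0.225). Dll1 missed it without D10 replicate 2 or D0 replicate 1 (adjusted p = 0.0635 and 0.0897) and Dll4 when any 1 of the 4 libraries was left out (adjusted p of 0.0705 to 0.117). Hes5 shares exon sequence with an opposite-strand gene.

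The supporting cell list was mostly lower. Of 27 genes measured, 22 had a difference below 0, against 7980 of the 12596 genes, and the median was -1.27. Both D10 libraries were below both D0 libraries for 19 and above for 4, against 35.4% below and 18% above among the 12596. At the threshold 9 fell and 2 rose, against 6.38% down and 4.02% up among the 12596. Of the 9, 6 were the Notch effectors and the ligand given above. Lgr5, the receptor that marks the progenitors, did not pass, with 61.8 and 4.18 TPM at D10, against 112 and 66.7 TPM at D0 and a log2 difference of -2.27 ± 1.25 (SE) and an adjusted p of 0.344; both D10 values were below both D0 values. Sox2, a factor of progenitors and supporting cells, had 14 and 41.2 TPM at D10, against 89.6 and 35 TPM at D0 and did not pass, with overlapping groups. Sox9, another factor of supporting cells, had 78.5 and 74.6 TPM at D10, against 119 and 107 TPM at D0 and Gjb6, connexin 30, had 129 and 357 TPM at D10, against 323 and 170.4 TPM at D0, and neither passed. Lgr6, a relative of Lgr5, fell, with 26.7 and 9.69 TPM at D10, against 72.3 and 90.3 TPM at D0. S100a1, a calcium-binding protein present in supporting cells, rose, with 1946 and 4844 TPM at D10, against 305 and 525 TPM at D0. Fbxo2, an F-box protein of cochlear epithelium, rose at 1.43 ± 0.40 (SE). The summed level of the list was 5058 and 9297 TPM at D10, against 6409 and 3655 TPM at D0, with overlapping groups, and S100a1 was a large part of the D10 sums. None of the 11 calls held each time a library was left out. Lgr6 missed the call without D10 replicate 2, D0 replicate 1 or D0 replicate 2 (adjusted p = 0.176, 0.0979 and 0.138), S100a1 without D10 replicate 2, D0 replicate 1 or D0 replicate 2 (adjusted p = 0.207, 0.204 and 0.088) and Fbxo2 without D10 replicate 2, D0 replicate 1 or D0 replicate 2 (adjusted p = 0.268, 0.257 and 0.119). In bulk RNA of a mixed culture, fewer cells of a type and less RNA per cell cannot be told apart.

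Most genes of the growth factor signaling lists did not pass the threshold. The shares over all 12596 genes were 4.02% up and 6.38% down. In the FGF and MAPK feedback list 3 of 18 genes fell and 1 rose. Etv4, an ETS factor induced by FGF signaling, had 3.71 and 2.03 TPM at D10, against 37.3 and 43.4 TPM at D0, with a log2 difference of -3.45 ± 0.58 (SE) and an adjusted p of 0.00457. Spry4, a feedback inhibitor of the pathway, had 1.06 and 2.08 TPM at D10, against 26.5 and 13.6 TPM at D0, with a log2 difference of -2.99 ± 0.43 (SE) and an adjusted p of 0.00192. Etv1, a relative of Etv4, had 8.52 and 9.52 TPM at D10, against 30.1 and 50.6 TPM at D0. Fgf8, a ligand made by inner hair cells, rose, with 44.2 and 20.6 TPM at D10, against 0.606 and 1.66 TPM at D0. Of the Wnt list, 4 of 25 fell and none rose, and 2 passed without D10 replicate 1 and 0 without D0 replicate 1 or D0 replicate 2. Tcf7, a transcription factor of Wnt signaling, had 13.1 and 2.15 TPM at D10, against 45.8 and 53.4 TPM at D0. Of the BMP and TGF-beta list, 3 of 16 fell and none rose, and 0 passed without D10 replicate 2, D0 replicate 1 or D0 replicate 2. Id2, an inhibitor of basic helix-loop-helix factors that BMP induces, had 43.3 and 36.3 TPM at D10, against 380.2 and 275 TPM at D0. Of 15 Hippo and YAP targets 1 fell, the receptor kinase gene Axl, at -2.63 ± 0.56 (SE). The Hippo median of -0.13 turned positive when libraries were rescaled or quantile normalised. Etv4, Spry4 and Etv1 kept the call each time a library was left out. Fgf8 missed it without D10 replicate 1 or D0 replicate 1 (adjusted p = 0.0546 and 0.0837), Tcf7 without D10 replicate 2, D0 replicate 1 or D0 replicate 2 (adjusted p = 0.115, 0.0867 and 0.101), Id2 without D10 replicate 2, D0 replicate 1 or D0 replicate 2 (adjusted p = 0.0858, 0.114 and 0.0649) and Axl when any 1 of the 4 libraries was left out (adjusted p of 0.0566 to 0.0993).

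Progenitor RNA-binding and chromatin factors had 8 of 16 genes down and none up, against 6.38% down among the 12596 genes. The median was -1.15. Ezh2, the methyltransferase of a Polycomb complex, had 17.1 and 16.3 TPM at D10, against 60.8 and 75 TPM at D0, with a log2 difference of -1.95 ± 0.34 (SE) and an adjusted p of 0.0058. Dnmt1, the maintenance DNA methyltransferase, had 8 and 9.4 TPM at D10, against 21 and 24.2 TPM at D0. Igf2bp3, an RNA-binding protein of fetal cells, had 4.26 and 1.34 TPM at D10, against 18.6 and 11.9 TPM at D0. Hdac1, a histone deacetylase, had 71.4 and 49.2 TPM at D10, against 150.5 and 128 TPM at D0. In each the D10 libraries lay below the D0 libraries. Uhrf1, which stands in the S phase list too, was the member that kept its call whichever library was left out, and the list had 3 calls without D10 replicate 2, 2 without D0 replicate 1 and 4 without D0 replicate 2. Ezh2 missed it without D0 replicate 2 (adjusted p = 0.0552), Dnmt1 without D10 replicate 1, D0 replicate 1 or D0 replicate 2 (adjusted p = 0.0514, 0.0579 and 0.0878), Igf2bp3 without D10 replicate 2 or D0 replicate 1 (adjusted p = 0.0898 and 0.106) and Hdac1 without D10 replicate 2 or D0 replicate 1 (adjusted p = 0.0828 and 0.0945). Of 12 replication-dependent histone genes measured, 4 fell and none rose, against 6.38% down among the 12596, at levels that near-identical copies make uncertain. Without D10 replicate 2 or D0 replicate 1 the count was 1. Ezh2 and Igf2bp3 share exon sequence with an opposite-strand gene.

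Outside the hair cell lists, motile cilium genes rose. Of 16 measured, 9 passed upward and none downward, against 4.02% upward among the 12596 genes, with a median of 2.20. Both D10 libraries were above both D0 libraries for 15 of the 16, against 18% of the 12596. The summed level was 297 and 636 TPM at D10, against 83.3 and 76.1 TPM at D0. Pifo, a protein of the ciliary base, had 29 and 51.1 TPM at D10, against 0.528 and 1.38 TPM at D0, with a log2 difference of 4.37 ± 0.67 (SE) and an adjusted p of 0.00279. Dnaic2, an intermediate chain of the outer dynein arm, had 20.1 and 41.7 TPM at D10, against 1.24 and 1.05 TPM at D0, with a log2 difference of 3.80 ± 0.61 (SE) and an adjusted p of 0.00352. Tekt1, a tektin of the ciliary microtubules, had 38.7 and 62.4 TPM at D10, against 4.69 and 7.28 TPM at D0. Foxj1, the factor that turns on motile cilium genes, had 7.69 and 18.4 TPM at D10, against 0.996 and 0.726 TPM at D0. Every D10 value of these 4 genes was above every D0 value. Pifo and Dnaic2 kept the call whichever library was left out, and the other 7 of the 9 did not. The list had 3 calls without D10 replicate 2, 2 without D0 replicate 1 and 4 without D0 replicate 2. Tekt1 missed it without D10 replicate 2, D0 replicate 1 or D0 replicate 2 (adjusted p = 0.106, 0.121 and 0.0611) and Foxj1 without D10 replicate 2, D0 replicate 1 or D0 replicate 2 (adjusted p = 0.0898, 0.0656 and 0.0752). In the native Atoh1 sort, Pifo had 74.2 and 73.2 TPM and Dnaic2 had 126 and 172 TPM.

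Lysosomal genes leaned upward. Of 21 measured, 4 rose and none fell, against 4.02% up among the 12596 genes. Both D10 libraries were above for 13, against 18% of the 12596. Hexa, a subunit of beta-hexosaminidase, had 177 and 109 TPM at D10, against 38.4 and 42.2 TPM at D0, with a log2 difference of 1.76 ± 0.30 (SE) and an adjusted p of 0.00453. Ctsd, the protease cathepsin D, had 607 and 465 TPM at D10, against 206 and 223 TPM at D0. Ctsa, the protective protein cathepsin A, had 459 and 343 TPM at D10, against 79.6 and 147 TPM at D0, and Lamp2, a lysosomal membrane protein, had 358 and 189 TPM at D10, against 99.9 and 102 TPM at D0. The summed level was 5035 and 3011 TPM at D10, against 1959 and 2367 TPM at D0. The list median was 0.98 in replicate 1 and 0.09 in replicate 2. Hexa kept the call each time a library was left out, and the list had 1 call without D10 replicate 1 or D0 replicate 1 and 2 without D0 replicate 2. Ctsd missed it without D10 replicate 1, D0 replicate 1 or D0 replicate 2 (adjusted p = 0.0633, 0.0857 and 0.0587), Ctsa without D10 replicate 1 or D0 replicate 1 (adjusted p = 0.0578 and 0.109) and Lamp2 without D10 replicate 1, D0 replicate 1 or D0 replicate 2 (adjusted p = 0.22, 0.176 and 0.153). Hexa and Ctsa share exon sequence with an opposite-strand gene.

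Cholesterol synthesis genes were mostly lower, though most did not pass. Of 20 genes, 17 had both D10 libraries below both D0 libraries, against 35.4% of the 12596 genes. At the threshold 3 passed downward, against 6.38% of the 12596, and none upward, with a median of -1.42. With the replicate number as a block, 12 of the 20 were called lower. Dhcr7, the last enzyme of one branch of the pathway, had 45.7 and 47.3 TPM at D10, against 330.4 and 247 TPM at D0, with a log2 difference of -2.59 ± 0.34 (SE) and an adjusted p of 0.00107. Srebf2, the transcription factor of the pathway, had 19.6 and 24 TPM at D10, against 63.6 and 46.5 TPM at D0, and Nsdhl, a sterol dehydrogenase, had 9.77 and 15.6 TPM at D10, against 25.6 and 39.8 TPM at D0. The summed level was 1053 and 629 TPM at D10, against 3526 and 1558 TPM at D0. Dhcr7 kept the call each time a library was left out. Srebf2 missed it when any 1 of the 4 libraries was left out (adjusted p of 0.0586 to 0.181) and Nsdhl without D10 replicate 1, D0 replicate 1 or D0 replicate 2 (adjusted p = 0.175, 0.0673 and 0.237).

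Most matrix and junction genes did not pass the threshold. Of the 12596 genes, 4.02% passed upward and 6.38% downward. Otoa, otoancorin of the interface between the sensory epithelium and the overlying gels, had 492 and 1292 TPM at D10, against 62.8 and 48.7 TPM at D0, with a log2 difference of 3.83 ± 0.66 (SE) and an adjusted p of 0.00511, the 1 gene of 9 in the tectorial and otolithic list that passed. Timp2, an inhibitor of metalloproteinases, had 219 and 154 TPM at D10, against 17.5 and 19.8 TPM at D0, with a log2 difference of 3.24 ± 0.27 (SE) and an adjusted p of 0.000113. Mmp2, a gelatinase that Timp2 binds, had 70.1 and 219 TPM at D10, against 23.9 and 40.6 TPM at D0. These were the 2 of 15 proteoglycan and protease genes that passed. Nid2, nidogen-2 of the basement membrane, had 1.06 and 0.512 TPM at D10, against 11 and 7.36 TPM at D0, with a log2 difference of -2.50 ± 0.36 (SE) and an adjusted p of 0.00189. Of 20 collagen and basement membrane genes 3 fell and none rose, with a median of -0.78. The difference was below 0 for 17 of the 20, against 7980 of the 12596 genes. Both D10 libraries were below both D0 libraries for 10, against 35.4% of the 12596. Cldn9, a claudin of the inner ear, was the 1 of 22 junction and keratin genes that passed, with 1648 and 885 TPM at D10, against 464 and 338 TPM at D0. The difference was above 0 for 18 of the 22, against 4616 of the 12596 genes. Both D10 libraries were above both D0 libraries for 8, against 18% of the 12596. With the replicate number as a block, 3 of the 22 were called higher and 1 lower. Krt8, a keratin of simple epithelia, had 2497 and 588 TPM at D10, against 716 and 327 TPM at D0 and did not pass. S100a16, an S100 calcium-binding protein, had 32.6 and 69.9 TPM at D10, against 2.65 and 2.68 TPM at D0. Its relative S100a13 had 430.2 and 1464 TPM at D10, against 54.5 and 69.7 TPM at D0. These were the 2 of 13 genes in the galectin, annexin and S100 list that passed. The median of that list was 1.46 in replicate 1 and -1.16 in replicate 2, opposite in sign. Otoa, Timp2 and Nid2 kept the call each time a library was left out. Mmp2 missed it without D10 replicate 2, D0 replicate 1 or D0 replicate 2 (adjusted p = 0.319, 0.279 and 0.0932), Cldn9 without D10 replicate 1, D0 replicate 1 or D0 replicate 2 (adjusted p = 0.199, 0.105 and 0.211), S100a16 without D10 replicate 2 (adjusted p = 0.0525) and S100a13 without D10 replicate 2, D0 replicate 1 or D0 replicate 2 (adjusted p = 0.154, 0.127 and 0.088). Nid2 and Krt8 share exon sequence with an opposite-strand gene.

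Several programs gave no calls, though 3 of 19 interferon response genes fell, against 6.38% of the 12596 genes. Oas1a, a sensor of double-stranded RNA, had 0.384 and 0.0156 TPM at D10, against 4.54 and 5.78 TPM at D0, with a log2 difference of -2.37 ± 0.34 (SE) and an adjusted p of 0.00187, and Bst2, tetherin, had 27.3 and 10.0 TPM at D10, against 119 and 108 TPM at D0. The limma fit called 0 of 21 hypoxia and glycolysis genes, 0 of 31 oxidative phosphorylation genes, 0 of 18 genes of the unfolded protein response, 0 of 20 immediate early genes, 0 of 16 p53 targets and 0 of 12 housekeeping genes. A count of 0 does not show that these levels were equal. The median of the hypoxia and glycolysis list was -1.36 in replicate 1 and 0.44 in replicate 2, opposite in sign. The immediate early list had medians of -0.16 and 1.42 in the same order. Egr1, an immediate early transcription factor, had 90.8 and 1084 TPM at D10, against 646 and 865 TPM at D0. Oas1a kept the call each time a library was left out, and Bst2 missed it without D10 replicate 2, D0 replicate 1 or D0 replicate 2 (adjusted p = 0.0889, 0.0798 and 0.0614).

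**Figure D3:**
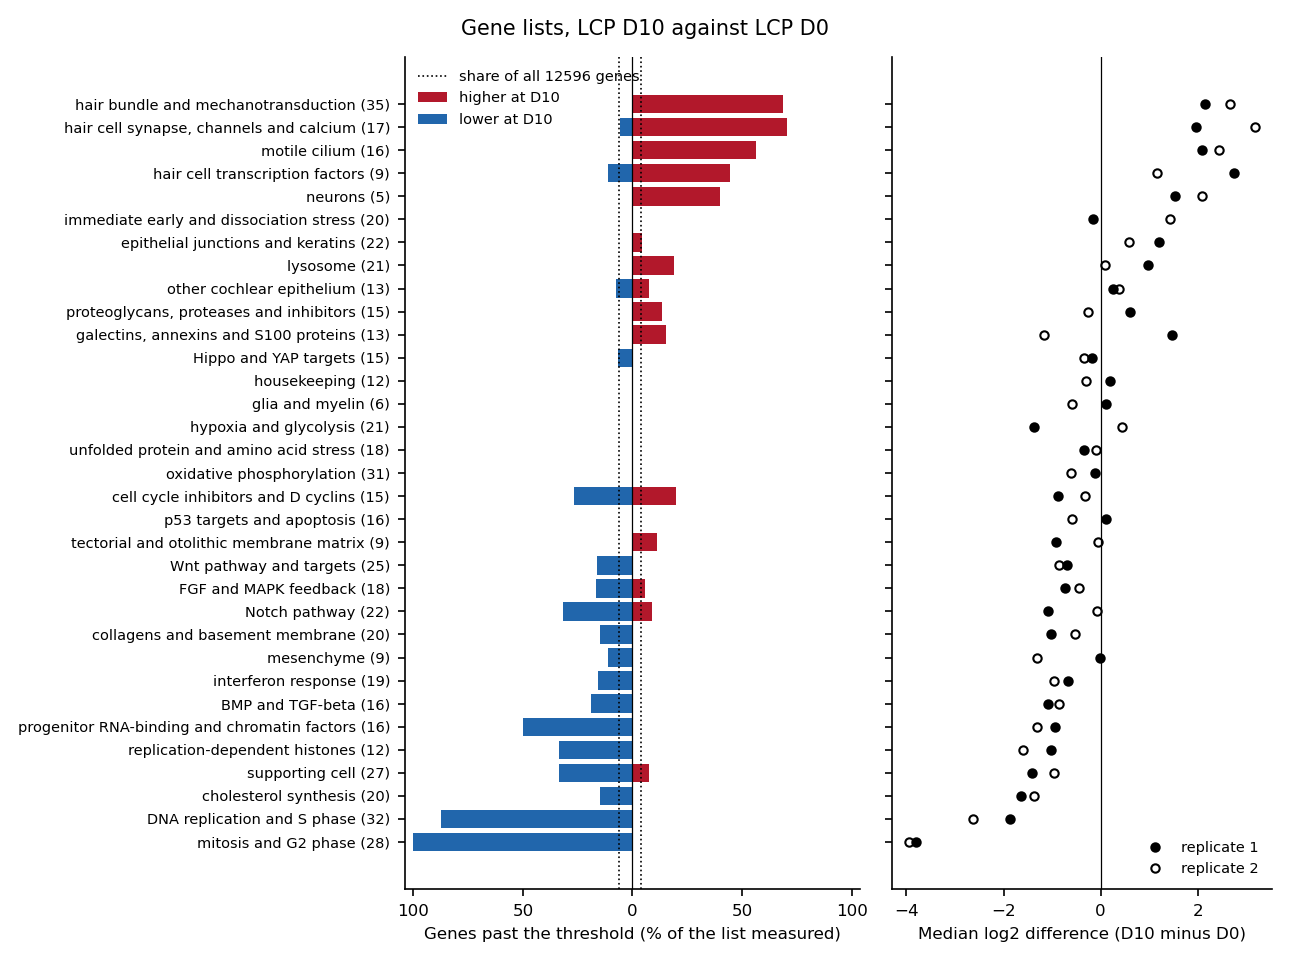
Left, share of the measured genes of each list (number in brackets, lists with at least 5) past the threshold, higher at D10 (red, to the right) or lower (blue, to the left), with dotted lines at the shares over all 12596 genes (4.02% and 6.38%). Right, the list's median log2 difference in replicate 1 (filled) and replicate 2 (open); lists run from the highest to the lowest overall median, hair bundle genes at the top and mitosis genes at the bottom.

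Markers of other cell types were checked in the same 4 libraries, where 4.02% of the 12596 genes rose and 6.38% fell. Of 12 immune markers 10 were below 1 TPM in each library, with C1qa and C1qc at 0, and all 6 erythroid markers were below 1 TPM. Of 8 endothelial markers 5 were below 1 TPM, with Cldn5 at 0. Of 7 melanocyte markers 5 were below 1 TPM, with Dct and Tyrp1 at 0. Of 15 mesenchymal markers 9 were measured, and Dcn, the proteoglycan decorin, made up much of their sum, with 279 and 205 TPM at D10, against 737 and 803 TPM at D0. The sum over the full list was 590 and 454 TPM at D10, against 1021 and 1544 TPM at D0, and 1 of the 9 genes, the collagen gene Col1a1, fell, at -2.29 ± 0.34 (SE). Of 12 neuronal markers 5 were measured and 2 rose, the neurofilament genes Nefl, with 14.7 and 101 TPM at D10, against 0.0382 and 0.379 TPM at D0, and Nefm, with 29 and 74.1 TPM at D10, against 0.842 and 1.47 TPM at D0. These 2 genes overlap each other on opposite strands, and in the native Atoh1 sort Nefl had 69.8 and 152 TPM and Nefm had 85.8 and 94.8 TPM. Of the other neuronal markers, 6 of 12 were below 1 TPM in each library. Snap25, a vesicle fusion protein, had 18.2 and 26 TPM at D10, against 5.64 and 5.37 TPM at D0, and Map2, a microtubule-associated protein, had 34.5 and 28.6 TPM at D10, against 78.2 and 31.3 TPM at D0. Stmn2, a stathmin, was at 0 in both D10 libraries, against 3.47 and 1.5 TPM at D0, and these 3 did not pass. Map2 shares exon sequence with an opposite-strand gene. Tubb3, a tubulin, reached 7.31 TPM in D10 replicate 1 and stayed below 1 TPM in the other libraries. Of 6 glial genes measured none passed. Among other cochlear epithelial markers, Clu, clusterin, rose with 3311 and 1980 TPM at D10, against 582 and 519 TPM at D0, and Gata2, a GATA factor, fell with 2.81 and 1.58 TPM at D10, against 25.7 and 14 TPM at D0. Kit, a receptor of melanocytes and other cells, had 6.44 and 9.97 TPM at D10, against 0.516 and 0.782 TPM at D0. Tek, an endothelial receptor, had 1.55 and 0.192 TPM at D10, against 6.95 and 9.47 TPM at D0. The part of these cells in the results above was not tested. Nefl missed the call without D10 replicate 2, D0 replicate 1 or D0 replicate 2 (adjusted p = 0.123, 0.102 and 0.0735), Nefm without D10 replicate 2 or D0 replicate 1 (adjusted p = 0.0669 and 0.0688), Clu without D10 replicate 1, D0 replicate 1 or D0 replicate 2 (adjusted p = 0.0698, 0.068 and 0.0796), Kit without D10 replicate 2, D0 replicate 1 or D0 replicate 2 (adjusted p = 0.0701, 0.0765 and 0.0501) and Tek without D10 replicate 2 or D0 replicate 2 (adjusted p = 0.0635 and 0.0628).

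The days between show when the summed levels moved, as a description with no test. Mitosis genes summed to 1041 and 1148 TPM at D0, 707 and 994 TPM at D2, 159 and 61.4 TPM at D4 and 37.2 and 27.3 TPM at D10. Notch pathway genes summed to 3822 and 1133 TPM at D0, 342 and 429 TPM at D2, 358 and 342 TPM at D4 and 217 and 252 TPM at D10. By D2 the Notch sum had covered most of the distance to its D10 level, while the mitosis sum was still closer to its D0 level. Much of the fall of the Notch sum was that of Hes1. This gene had 1982 and 689 TPM at D0, against 40.1 and 18.9 TPM at D2. Synapse, channel and calcium genes of hair cells summed to 621 and 789 TPM at D0, 469 and 1084 TPM at D2, 1206 and 4031 TPM at D4 and 2550 and 6016 TPM at D10. Motile cilium genes summed to 83.3 and 76.1 TPM at D0, 79.9 and 101 TPM at D2, 180 and 646 TPM at D4 and 297 and 636 TPM at D10. From D4 on, replicate 2 was above replicate 1 in both of these sums. Cdkn1c peaked between, with 38.3 and 48.8 TPM at D0, 287 and 437 TPM at D2, 1725 and 1128 TPM at D4 and 289 and 722 TPM at D10. Atoh1 had 2.76 and 5.79 TPM at D0, 4.86 and 34.6 TPM at D2, 45.8 and 42.7 TPM at D4 and 24.3 and 14.2 TPM at D10, so both D4 libraries were above both D10 libraries.

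**Figure D4:**
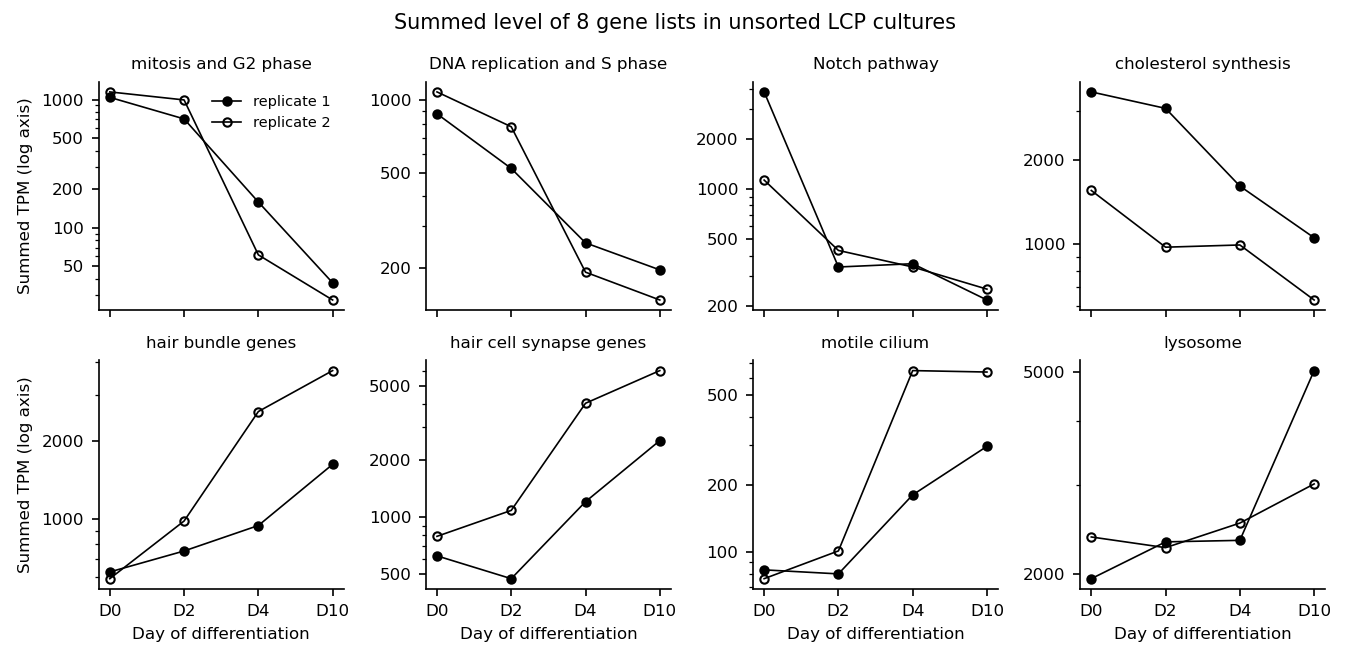
Summed TPM (y axes, log scale, each panel with its own range) of the measured genes of 8 lists in unsorted LCP cultures at D0, D2, D4 and D10 (x axis, evenly spaced), replicate 1 filled and replicate 2 open. Mitosis and Notch sums end lowest at D10 and hair bundle sums end highest, with the Notch sum low from D2 on.

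Sorted LCP cultures changed in the same direction for most of these genes. Of the 506 genes that rose in unsorted cultures, 488 had a difference of the same sign in sorted cultures and 432 were called higher there too, which is 85.4% of the unsorted list and 28.5% of the 1515 called higher in sorted cultures (12% of the 12596). Of the 804 that fell, 793 had the same sign and 628 were called lower there too, 78.1% of the unsorted list and 33.5% of the 1874 called lower in sorted cultures (14.9%). Cabp2 had 4251 and 3361 TPM in sorted D10 libraries, against 0.0523 and 0 TPM in sorted D0 libraries, and Cdk1 had 1.58 and 0.209 TPM in sorted D10 libraries, against 148 and 168 TPM in sorted D0 libraries. The comparisons share no library, but both use the same estimate of the spread of each gene. Replicate 2 of all 4 groups also carries 1 extraction date. The calls in unsorted and sorted cultures are therefore not independent.

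The difference between the 2 changes, unsorted minus sorted, passed the threshold for 7 of the 12596 genes (0.0556%), against 0.205% of all genes tested. It was positive for 5 (0.0397%). Timp2 had 219 and 154 TPM at D10, against 17.5 and 19.8 TPM at D0 in unsorted cultures and 49.6 and 36.4 TPM in sorted D10 libraries, against 16.2 and 24.4 TPM in sorted D0 libraries. Rbpms, an RNA-binding protein, had 122 and 44.6 TPM at D10, against 33.5 and 34.2 TPM at D0 in unsorted cultures and 9.81 and 8.01 TPM in sorted D10 libraries, against 61.4 and 74.4 TPM in sorted D0 libraries. In Timp2 the unsorted D10 libraries rose far above D0 and the sorted ones less, and in Rbpms the sorted D10 libraries were the lowest of all 8. Blnk, an adaptor of B cell receptor signaling, had 28.1 and 14.6 TPM at D10, against 1.3 and 4.55 TPM at D0 in unsorted cultures and 1.3 and 0.336 TPM in sorted D10 libraries, against 6 and 5.94 TPM in sorted D0 libraries. Selenop, a secreted selenium carrier, had 64.9 and 48.2 TPM at D10, against 17.7 and 24.6 TPM at D0 in unsorted cultures and 11.4 and 12.5 TPM in sorted D10 libraries, against 36.7 and 32.5 TPM in sorted D0 libraries. Mmp14, a membrane-bound metalloproteinase, had 105 and 83 TPM at D10, against 93.4 and 89.5 TPM at D0 in unsorted cultures and 20.7 and 23 TPM in sorted D10 libraries, against 122 and 95.6 TPM in sorted D0 libraries. In Selenop and Mmp14 too the sorted D10 libraries were the lowest of all 8, and in Blnk the lowest value was that of a sorted D10 library. The difference was negative for the remaining 2 (0.0159%). Tnni3, cardiac troponin I, had 2.26 and 6.06 TPM at D10, against 7.18 and 3.64 TPM at D0 in unsorted cultures and 47.3 and 47.1 TPM in sorted D10 libraries, against 3.4 and 1.05 TPM in sorted D0 libraries. Mcub, a subunit of the mitochondrial calcium uniporter, had 5.87 and 8.74 TPM at D10, against 4.28 and 4.12 TPM at D0 in unsorted cultures and 27.6 and 17.3 TPM in sorted D10 libraries, against 0.906 and 1.82 TPM in sorted D0 libraries. In Tnni3 and Mcub the sorted D10 libraries were the highest of all 8, and the unsorted groups of Tnni3 overlapped. With the replicate number as a block, Rbpms, Selenop and Mmp14 passed (adjusted p = 0.0348, 0.0417 and 0.0234), and Timp2, Blnk, Tnni3 and Mcub did not (adjusted p = 0.0608, 0.052, 0.0544 and 0.0604). None of the 7 passed in every fit that left out 1 of the 8 libraries, with adjusted p of up to 0.201. In unsorted cultures alone, Blnk missed its call without D10 replicate 1 or D0 replicate 1 (adjusted p = 0.0829 and 0.137) and Selenop when any 1 of the 4 libraries was left out (adjusted p of 0.0639 to 0.205), and Selenop shares exon sequence with an opposite-strand gene.

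**Figure D5:**
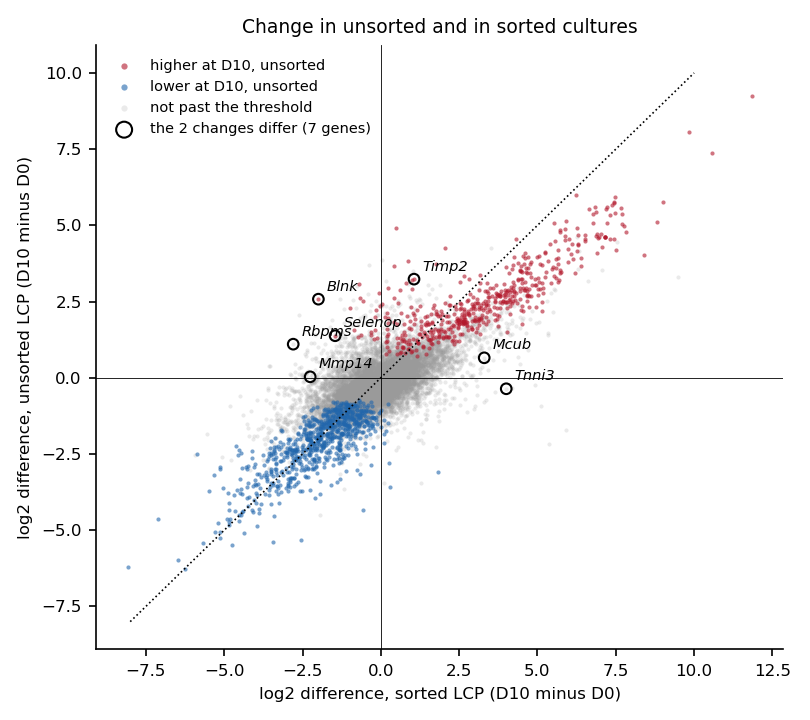
Log2 difference (D10 minus D0, log2(TPM + 1) scale) in unsorted (y axis) against sorted (x axis) LCP cultures for the 12596 genes, coloured by the call in unsorted cultures, with a dotted line where both changes are equal. Open circles mark the 7 genes whose changes differ; Timp2, Rbpms and 3 others lie above the line, and Tnni3 and Mcub below it.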

How the data were processed

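RNA of 18 libraries in 9 groups of 2 was analysed, grouped by sample title. Per the labels' protocols, cDNA was made with a SMARTer V4 kit from 2.5 ng of RNA, sheared and made into ThruPLEX libraries for single-end sequencing of 75 bp. The authors deposited 1 TPM value per gene. The submitters' processing notes name STAR, Salmon, FastQC, DESeq2 and build mm10, with neither version nor role. TPM keeps no depth and is relative, so a few abundant genes that rise push down all others.

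Of 47729 gene identifiers 47310 matched GENCODE M21, the source of names, gene types and coordinates. Genes reaching 1 TPM in 2 or more of all 18 libraries entered a linear model in limma 3.58.1 in R 4.3.3 on log2(TPM + 1), with a mean per group, a trend and 9 residual degrees of freedom. Adjustment of the two-sided p-values followed Benjamini and Hochberg, with a threshold of 0.05. In data simulated from these libraries, the LCP D10 against D0 test called 69 of 100 genes given a log2 change of 2, and 89 of 100 given 4, among 20463. The changed genes were drawn from the more abundant genes only, so these shares do not cover low genes. Noise was normal and independent, and all other genes were kept equal between groups. Tables were made with Python 3.11.15 and pandas 2.3.3.

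The genes and the 37 lists were chosen with earlier results of these data known. Named genes are the 15 widest gaps in each direction among called genes with a group mean of at least 10 TPM. They also include up to 3 called genes per list, its most abundant gene not called, and fixed markers. Added to these are genes whose change differs between unsorted and sorted cultures and the 5 genes nearest the threshold on each side. Some named genes are not described in the text. Other list genes in the text were named after their values were seen and are outside the counts of named genes. Exon overlap with opposite-strand genes was looked up for the named genes only. Of the genes past the threshold, 1 with a wide gap and 1 hair cell transcription factor are not reported here. Replicate numbers pair the libraries by extraction date in the labels. Deviations of same-numbered libraries correlated at 0.261.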

Additional observations from a re-analysis of the deposited data

Results flagged for a closer look

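For 7 genes the change from D0 to D10 in unsorted cultures differed from that in sorted cultures by the test of the difference (unsorted change minus sorted change, log2 scale, limma). It was 2.18 ± 0.38 (SE, adjusted p = 0.0492) for Timp2, 4.57 ± 0.77 (SE, adjusted p = 0.0468) for Blnk, 3.90 ± 0.58 (SE, adjusted p = 0.0239) for Rbpms, 2.84 ± 0.48 (SE, adjusted p = 0.0468) for Selenop and 2.29 ± 0.39 (SE, adjusted p = 0.0492) for Mmp14. It was -4.36 ± 0.76 (SE, adjusted p = 0.0492) for Tnni3 and -2.65 ± 0.46 (SE, adjusted p = 0.0492) for Mcub. Over the fits that left out 1 of the 8 libraries, the adjusted p ran from 0.0214 to 0.193 for Timp2, 0.022 to 0.189 for Blnk, 0.00164 to 0.0896 for Rbpms, 0.0262 to 0.193 for Selenop, 0.0262 to 0.193 for Mmp14, 0.0196 to 0.201 for Tnni3 and 0.023 to 0.193 for Mcub. No source used here states the marker of the sort, so the cells it kept cannot be named.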

How the results depend on the processing

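Of the 12596 genes, 1310 passed the threshold (506 higher, 804 lower). With a pseudocount of 0.1 or 5, no filter, a filter of 5 TPM, rescaled or quantile normalised libraries, no trend, or a fit of these genes only, 1010 to 1665 passed. With the replicate block 1737 passed, 1308 of them among the 1310, and it changed no other call of a named gene than those given for the unsorted and sorted cultures. Among other cochlear epithelial markers the block gave 3 higher and 2 lower calls (1 and 1 without it). Lower calls were 2 among mesenchymal markers and 2 among Hippo and YAP targets (1 in each without it). They were 8 in the Notch list (7 without it), 4 in the BMP and TGF-beta list (3) and 5 among histones (4). Higher calls were 25 among hair bundle genes (24), 14 among hair cell synapse, channel and calcium genes (12) and 10 among motile cilium genes (9). Proteoglycan and protease genes gained 1 lower call, as did oxidative phosphorylation genes. Hypoxia and glycolysis genes gained 1 higher and 1 lower. The cholesterol and junction lists are given above, and the remaining lists kept their counts. A fit of the 12 LCP libraries called 834 (264 higher, 570 lower). A limma fit of the 4 libraries alone called 0 (0 higher, 0 lower), with 2378 genes at an unadjusted p under 0.05, against 3347 in the fit of 18. Leaving out 1 library gave 422 (without LCP D0 replicate 1) to 1137 (without LCP D10 replicate 1), with 129 to 460 higher and 293 to 677 lower. It gave 671 (242 higher, 429 lower) without LCP D10 replicate 2 and 509 (169 higher, 340 lower) without LCP D0 replicate 2. In all 4 such fits 341 genes passed (110 higher, 231 lower), and 50 of the 93 named genes. The remaining library of a group is then taken to vary like the other groups. The number of genes whose change differed between unsorted and sorted cultures, 7, was 3 with a pseudocount of 0.1, 11 with 5 and 12 with no filter. By limma with a filter of 5 TPM or these genes only it was 0, with 1140 and 1325 at an unadjusted p under 0.05. It was 0 to 188 without 1 library, the 188 without LCP D10 replicate 2, and 6 with the replicate block, 3 of them among the 7. Of 6720 genes whose groups did not overlap, 1422 had a gap of at least 1. Rescaling and quantile normalisation moved the median of all 12596 genes by 0.15 and 0.141. The causes were not tested. Without depth, low genes carry an unknown counting error.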

Other observations

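Some of the most abundant genes past the threshold, chosen after their values were seen, lay outside the lists. Mia, a secreted cartilage protein, had 10145 and 41980 TPM at D10, against 2785 and 4127 TPM at D0, with 2.61 ± 0.65 (SE) on the log2 scale. Its second D10 library held the highest value of any of the genes named here. Ftl1, the ferritin light chain that stores iron, had 3802 and 3711 TPM at D10, against 1188 and 1464 TPM at D0. Gpx2, a glutathione peroxidase, had 645 and 879.8 TPM at D10, against 62.1 and 51.8 TPM at D0. Calm2, a calmodulin gene, had 1134 and 2178 TPM at D10, against 246 and 347 TPM at D0. Ndrg3, a member of the NDRG family, had 1078 and 519 TPM at D10, against 121 and 176 TPM at D0. In these 5 genes both D10 libraries were above both D0 libraries. Mia missed the call without D10 replicate 2, D0 replicate 1 or D0 replicate 2 (adjusted p = 0.225, 0.189 and 0.0937), Ftl1 without D0 replicate 1 (adjusted p = 0.0525), Gpx2 without D10 replicate 2, D0 replicate 1 or D0 replicate 2 (adjusted p = 0.0529, 0.0511 and 0.0586), Calm2 without D10 replicate 2 or D0 replicate 1 (adjusted p = 0.0976 and 0.103) and Ndrg3 without D10 replicate 1, D0 replicate 1 or D0 replicate 2 (adjusted p = 0.169, 0.198 and 0.0962).

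Among abundant genes that fell, Cryab, the small heat shock protein alpha-B crystallin, had 289.9 and 168 TPM at D10, against 1063 and 1231 TPM at D0. Fstl1, a secreted follistatin-like protein, had 97.9 and 53.8 TPM at D10, against 779 and 554 TPM at D0. The ribosomal protein genes Rpl32 and Rps10 fell by less. Rpl32 had 989 and 701 TPM at D10, against 1447 and 1601 TPM at D0, with -0.87 ± 0.23 (SE), while Rps10 had 338 and 208 TPM at D10, against 507 and 589 TPM at D0, with -1.04 ± 0.25 (SE). Ribosomal protein genes have many near-identical pseudogenes, so their values are uncertain. Cryab missed the call without D10 replicate 2 or D0 replicate 2 (adjusted p = 0.0649 and 0.0605), Fstl1 when any 1 of the 4 libraries was left out (adjusted p of 0.0524 to 0.17), Rpl32 without D10 replicate 2, D0 replicate 1 or D0 replicate 2 (adjusted p = 0.249, 0.133 and 0.193) and Rps10 without D10 replicate 2, D0 replicate 1 or D0 replicate 2 (adjusted p = 0.174, 0.087 and 0.15).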
